A study of Rattus norvegicus with 8 samples.

Results

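The genes described here are 9 members of the rat antigen presentation machinery: Cd74, RT1-Da, RT1-Ba, RT1-Bb, RT1-Db1 and Ciita, which belong to the class II route, and B2m, Tap1 and Tap2, which belong to the class I route. Their probes were found by the gene name in the raw array files, which gave 11 probes, 1 each for 7 genes and several for RT1-Bb and RT1-Db1. Of the 9 genes, 8 were among the 16908 genes tested, and RT1-Ba was not, because its probe was not well above background on any array. The members were chosen by measured values of these same arrays, known from earlier results, and the comparison that guided the choice is not given. Their own levels and differences are therefore given as a description with no p-value. RNA came from N27 cells, an immortalised line from rat midbrain labelled as dopamine producing, which is 1 line and so 1 genetic background. The 4 groups were control, manganese (Mn) at 150 µM for 48 h, MPP+ at 250 µM for 48 h, and 3-NPA, whose concentration and length of exposure are not in the labels. No vehicle is named for any group. MPP+ is known to inhibit respiratory complex I, and 3-NPA is taken here as 3-nitropropionic acid, known to inhibit succinate dehydrogenase. Each group had 2 single-colour arrays, and nothing in the labels says that these came from separate cultures, so p-values measure the spread between arrays, which may be technical.

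Class I molecules sit on almost all nucleated cells and carry peptides made by the proteasome in the cytosol. Tap1 and Tap2 form the transporter that moves those peptides into the endoplasmic reticulum, and B2m is the light chain that completes every classical class I molecule. Class II molecules carry peptides cut in lysosomes and are largely restricted to professional antigen-presenting cells, though interferon gamma can induce them elsewhere. RT1-Da and RT1-Db1 encode the alpha and beta chains of the rat D molecule, and RT1-Ba and RT1-Bb those of the B molecule. Cd74, the invariant chain, fills the class II groove until the lysosome and is also a surface receptor for the cytokine Mif. Ciita is the coactivator that switches class II genes on from a promoter module of X and Y boxes.

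The promoters are shown for the motif letters they hold, counted as exact spellings only. RefSeq promoters on GRCr8 were found for 8 of the 9 members, with Ciita not among them, and the 170 bases before each annotated start are printed 5′ to 3′ on the strand of the gene. Capitals mark every match to a motif searched.
Cd74, chr18:56527036-56527205 (plus strand): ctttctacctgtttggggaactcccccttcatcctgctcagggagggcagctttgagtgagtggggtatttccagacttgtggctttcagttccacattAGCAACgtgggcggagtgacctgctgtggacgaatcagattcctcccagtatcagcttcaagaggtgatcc
RT1-Da, chr20:4515245-4515414 (plus strand): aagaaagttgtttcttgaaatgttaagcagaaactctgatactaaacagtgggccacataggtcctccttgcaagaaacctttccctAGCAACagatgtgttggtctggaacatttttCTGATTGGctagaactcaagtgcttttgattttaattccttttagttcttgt
RT1-Ba, chr20:4576887-4577056 (plus strand): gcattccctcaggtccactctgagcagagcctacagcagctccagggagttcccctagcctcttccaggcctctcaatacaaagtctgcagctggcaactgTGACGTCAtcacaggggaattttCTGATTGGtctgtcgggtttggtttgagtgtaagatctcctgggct
RT1-Bb, chr20:4604119-4604288 (minus strand): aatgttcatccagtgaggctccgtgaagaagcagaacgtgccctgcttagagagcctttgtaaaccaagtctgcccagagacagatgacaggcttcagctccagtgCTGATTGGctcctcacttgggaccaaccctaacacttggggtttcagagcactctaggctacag
RT1-Db1, chr20:4560163-4560332 (minus strand): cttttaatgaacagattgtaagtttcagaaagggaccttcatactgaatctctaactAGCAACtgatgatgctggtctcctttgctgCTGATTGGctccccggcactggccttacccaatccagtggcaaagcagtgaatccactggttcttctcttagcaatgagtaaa
B2m, chr3:129549160-129549329 (plus strand): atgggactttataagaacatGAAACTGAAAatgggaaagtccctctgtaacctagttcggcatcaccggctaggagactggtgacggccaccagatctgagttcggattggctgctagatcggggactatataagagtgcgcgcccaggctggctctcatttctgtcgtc
Tap1, chr20:4668544-4668713 (minus strand): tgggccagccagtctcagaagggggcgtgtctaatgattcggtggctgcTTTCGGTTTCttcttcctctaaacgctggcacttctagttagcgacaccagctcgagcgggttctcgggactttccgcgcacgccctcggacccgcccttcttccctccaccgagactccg
Tap2, chr20:4652297-4652466 (minus strand): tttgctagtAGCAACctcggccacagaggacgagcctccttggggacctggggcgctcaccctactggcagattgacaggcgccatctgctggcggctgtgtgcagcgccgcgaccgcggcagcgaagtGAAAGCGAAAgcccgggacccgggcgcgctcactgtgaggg
The 5 motifs were searched on both strands from 250 bases before to 50 bases after the start, and no matches overlapped. The Y box, spelled CTGATTGG, was in 4 of the 5 class II promoters (RT1-Da, RT1-Ba, RT1-Bb and RT1-Db1), in none of the 3 class I promoters and in 3.5% of all 33469 promoters of this length. The X box core, spelled AGCAAC, was in Cd74, RT1-Da and RT1-Db1 and also in Tap2, against 14.7% of all promoters. It began 31 bases before the Y box in RT1-Da and 30 bases before it in RT1-Db1. The cAMP response element TGACGTCA, which resembles a part of the X box, was in RT1-Ba and in 1.83% of all promoters. The interferon-stimulated response element, searched as GAAA, 2 bases of any kind and GAAA again, was in B2m, Tap1 and Tap2, in none of the class II promoters and in 3.92% of all promoters. The gamma-activated site TTCNNNGAA was in none of the 8, against 8.87% of all promoters. These are exact matches of letters, so a box with a changed letter was missed in either route. For example, B2m holds cggattgg and Cd74 holds cgaatcag, close to the Y box and to its reverse complement. No measurement here bears on binding.

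**Figure D1:**
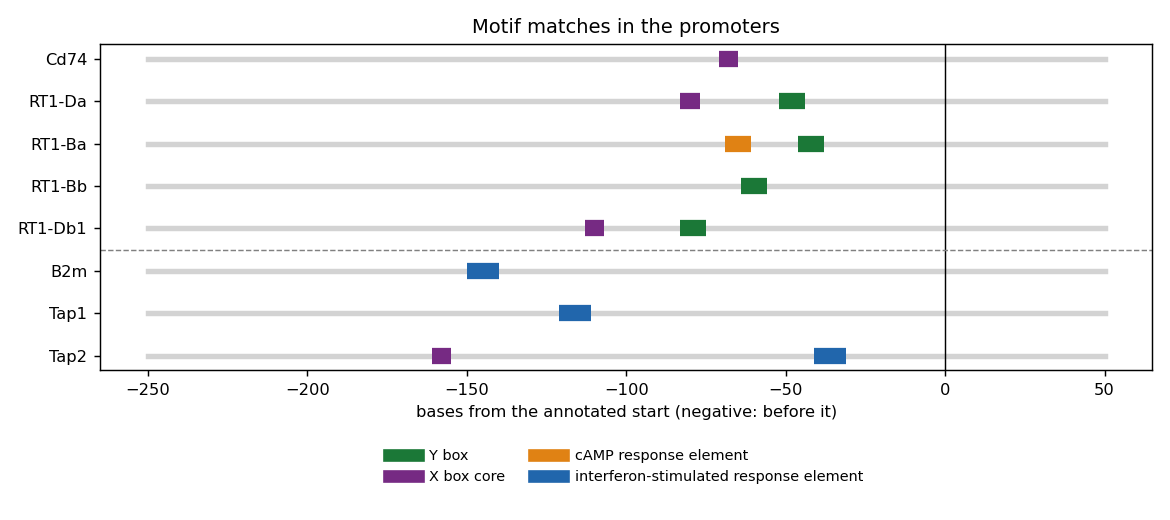
Positions of motif matches (coloured blocks) from 250 bases before to 50 bases after the annotated start in 8 promoters, class II above the dashed line and class I below it; the horizontal axis is in bases from the start. The Y box was found in 4 class II promoters and the interferon-stimulated response element in the 3 class I promoters.

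Signals are processed intensities, from which background was already subtracted, and are given as the mean over a probe's spots. Differences are on the log2 scale after the 75th percentile of each array was set to 0, with the limma standard error and 2 arrays a group. A probe was taken as well above background where more than 0.5 of its spots carried that mark in the deposited files. Control arrays had a higher limit of detection: the lowest probe signal well above background was 42.1 and 47.9 there, against 10.2 to 17.3 on the other 6 arrays. Where a gene was dim on both control arrays, the fold is therefore given as a lower bound, computed against that limit or the probe's own signal, whichever was higher. The limit is approximate, since some probes without the mark were brighter, such as Fcer1g at 54.3 on control replicate 1. A bound close to 1 is thus not firm. All 8 arrays lay on 1 slide and in 1 scan, the spots well above background ran from 32711 to 41354 of 58717, and 0 spots were saturated. The 3-NPA arrays were extracted by the software in the later of 2 runs, so 3-NPA and the extraction run cannot be told apart. The arrays of every group, control included, lay in neighbouring places on the slide, so group and place cannot be told apart either.

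Cd74, Ciita, RT1-Da and RT1-Db1 and 1 of the 2 RT1-Bb probes were highest on the 3-NPA arrays. RT1-Ba was dim throughout, and the class I genes were well above background on every array. With 3-NPA the class I genes had smaller differences from control than Cd74, Ciita, RT1-Da and RT1-Db1 as measured. With normexp background correction that order held for Cd74 and RT1-Db1, while B2m differed more than Ciita and RT1-Da, which were dim in control. Cd74 had signals of 17.7 and 13.5 on the control arrays, 57.4 and 50.7 with Mn, 13.4 and 13.5 with MPP+, and 142 and 159 with 3-NPA. Both Mn arrays and both 3-NPA arrays lay above every control and MPP+ array, and the 3-NPA arrays lay above the Mn arrays without overlap. Cd74 was not well above background on either control array, so it was at least 1.16-fold higher with Mn and at least 3.25-fold higher with 3-NPA. For MPP+ against control no bound above 1 could be given, so no direction is read there. Against the signals as measured, the log2 differences from control were 1.75 ± 0.12 for Mn, -0.38 ± 0.12 for MPP+ and 3.24 ± 0.12 for 3-NPA. Between 3-NPA and Mn, where all 4 arrays were well above background, the difference was 1.49 ± 0.12. The raw mean signals of the Cd74 spots, before any background was subtracted, ran from 48.7 to 58.5 in control, 79.7 to 94.3 with Mn, 46.0 to 48.5 with MPP+ and 172 to 202 with 3-NPA, in the same order. With normexp background correction and an offset of 50, the log2 differences shrank to 0.39 for Mn and 1.31 for 3-NPA. The probe of Cd74 lies at chr18:56765468-56765527 on rn4.

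**Figure D2:**
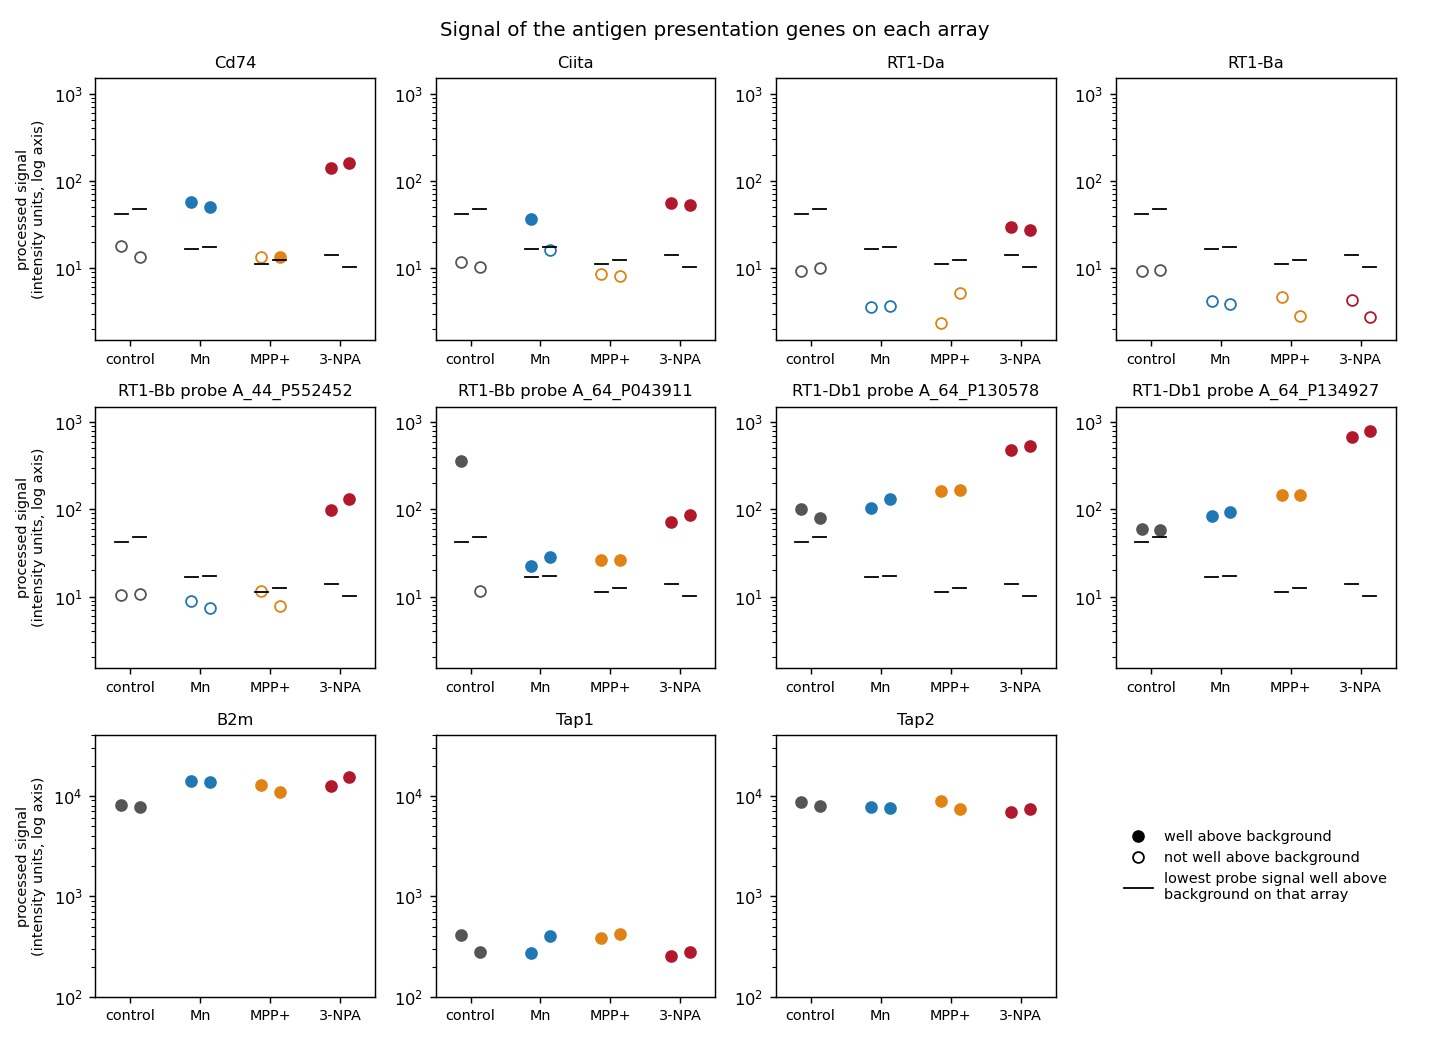
Processed signal (log axis, intensity units) of each member probe on each of the 8 arrays, 2 a group; filled points were well above background, and short black lines give the lowest probe signal well above background on that array (drawn for the class II probes). Cd74, Ciita, RT1-Da and RT1-Db1 are highest on the 3-NPA arrays, and the axis of B2m, Tap1 and Tap2 begins at a higher signal.

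Ciita was highest with 3-NPA. It gave 11.8 and 10.2 in control, 36.5 and 16.2 with Mn, 8.55 and 8.02 with MPP+, and 56.3 and 52.4 with 3-NPA. The first Mn array and both 3-NPA arrays were well above background, and the second Mn array was not. Ciita was at least 1.18-fold higher with 3-NPA than in control and at least 5.08-fold higher than with MPP+. Against control no bound above 1 could be given for Mn. The log2 difference from the dim control signals was 1.1 ± 0.35 with Mn, and it was 0.51 without Mn replicate 1, 1.69 without Mn replicate 2, 0.35 with normexp and 2.04 with quantile normalization. Its difference with 3-NPA was 2.27 ± 0.35, and 0.71 with normexp. Over the 8 arrays Ciita and Cd74 had a Pearson correlation of 0.967, given as a description of arrays that share groups and background.

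The class II beta chain RT1-Db1 was well above background on all 8 arrays with both of its probes. The probe A_64_P130578 gave 102 and 79.6 in control, 103 and 132 with Mn, 163 and 165 with MPP+, and 479 and 528 with 3-NPA. Both MPP+ arrays lay above both control arrays, and both 3-NPA arrays lay above all others. The log2 differences from control were 0.33 ± 0.14 with Mn, 0.69 ± 0.14 with MPP+ and 2.45 ± 0.14 with 3-NPA, the last a 5.46-fold difference. The other probe, A_64_P134927, gave 59.1 and 57.7 in control against 676 and 790 with 3-NPA, a log2 difference of 3.61 ± 0.11, and 1.15 ± 0.11 with MPP+. RT1-Db1 was thus higher in signal than control with MPP+ on both probes, and the difference with MPP+ on the first probe was 0.35 with normexp. Cd74 was dim in control, and no direction could be given for it with MPP+.

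The partner chain RT1-Da was detected with 3-NPA only among the 4 groups, at signals of 29.6 and 27.5. On the other 6 arrays it was not well above background, at 9.34 and 9.97 in control, 3.59 and 3.65 with Mn, and 2.37 and 5.13 with MPP+, values that have no order among themselves. It was at least 2.67-fold higher with 3-NPA than with MPP+ and at least 1.70-fold higher than with Mn. Against control no bound above 1 could be given, since the control limit lay above the 3-NPA signal.

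RT1-Bb was read by 2 probes that disagree in control. The probe A_44_P552452 gave 99.4 and 133 with 3-NPA and was not well above background on the other 6 arrays, at 7.40 to 11.7. That is at least 2.49-fold higher with 3-NPA than in control, at least 10.5-fold higher than with MPP+ and at least 6.85-fold higher than with Mn. The probe A_64_P043911, which has 1 spot on each array and is the brighter of the pair, gave 355 and 11.6 in control, 22.3 and 28.3 with Mn, 26.0 and 26.4 with MPP+, and 71.7 and 86.0 with 3-NPA. Its single spot on control replicate 1 was higher than every other array. The log2 difference of 3-NPA from control on this probe was 0.26 ± 1.38, and it was 2.64 without control replicate 1 and -2.12 without control replicate 2. On this probe 3-NPA was above Mn by 1.66 ± 1.38 and above MPP+ by 1.72 ± 1.38, with no overlap of arrays. RT1-Ba, the alpha chain of the B molecule, gave 2.72 to 9.55 and was not well above background on any array. The chains of the RT1 locus are polymorphic and similar to each other, so a probe can read a related chain or miss an allele, and this was not tested.

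The class I members were bright in control. With 3-NPA their differences from control were smaller than those of Cd74, Ciita, RT1-Da and RT1-Db1 as measured. With normexp B2m was at 0.74 with 3-NPA, below Cd74 (1.31) and RT1-Db1 (1.83) but above Ciita (0.71) and RT1-Da (0.455). With Mn the order did not hold even as measured: B2m differed more than RT1-Db1, which was at 0.33 ± 0.14 and 0.55 ± 0.11 on its probes. B2m gave 8060 and 7730 in control, 14200 and 13600 with Mn, 12800 and 11000 with MPP+, and 12500 and 15300 with 3-NPA. Every treated array lay above both control arrays, with log2 differences of 0.77 ± 0.11 for Mn, 0.41 ± 0.11 for MPP+ and 0.77 ± 0.11 for 3-NPA. B2m did not separate Mn from 3-NPA, where the arrays overlapped and the difference was 0.00 ± 0.11. Tap1 gave 414 and 277 in control, 271 and 407 with Mn, 382 and 423 with MPP+, and 257 and 277 with 3-NPA. Its difference from control was -0.08 ± 0.23 with Mn, 0.07 ± 0.23 with MPP+ and -0.38 ± 0.23 with 3-NPA. Tap2 gave 8650 and 7870 in control, 7760 and 7540 with Mn, 8970 and 7380 with MPP+, and 6930 and 7460 with 3-NPA. Its differences were small and below 0 in each treatment: -0.16 ± 0.09, -0.20 ± 0.09 and -0.23 ± 0.09 in the same order.

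**Figure D3:**
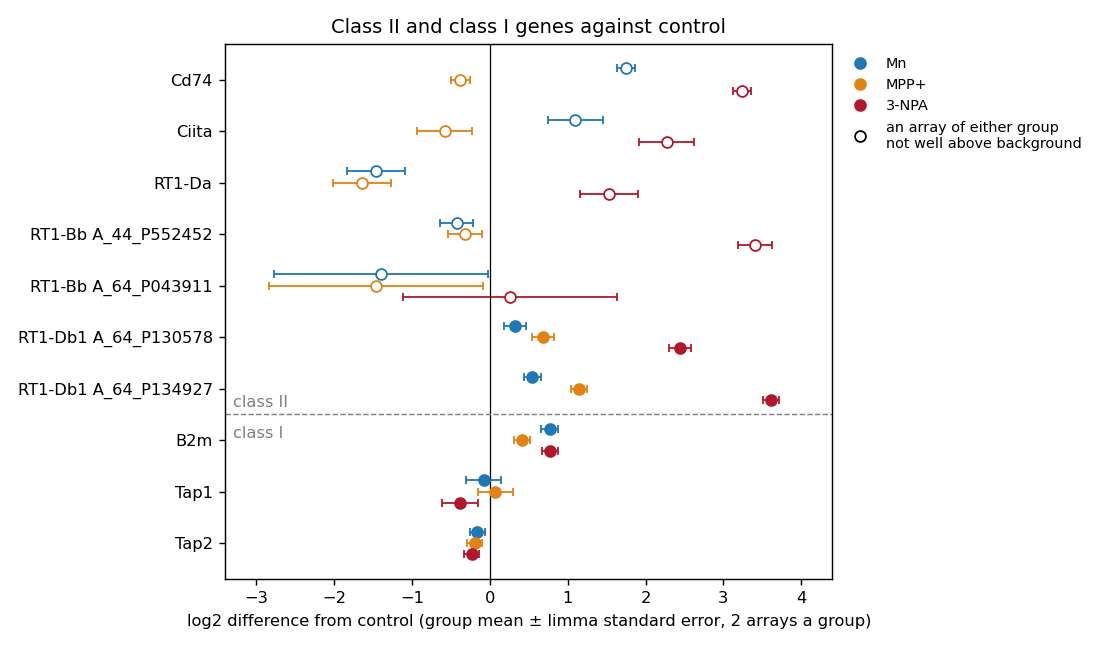
Log2 difference from control for each member probe (RT1-Ba left out), as group mean with the limma standard error, 2 arrays a group; open points involve an array on which the probe was not well above background. With 3-NPA the class II probes lie between 0.26 and 3.61 and the class I genes between -0.38 and 0.77.

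The calls of the fit stand beside the background of all genes, and nothing is read from them because the members were chosen with results of these same arrays known. With Mn, 2 of the 8 tested members were called higher and 0 lower, where 4.5% of all genes were called higher and 3.16% lower. With MPP+, 1 was called higher and 1 lower, against 7.47% and 6.47% of all genes, and the lower call was RT1-Da, dim on all 4 of those arrays and of opposite sign under quantile normalization (0.35 against -1.65). With 3-NPA, 5 were called higher and 0 lower, against 22.3% and 16% of all genes. Ciita and RT1-Da were tested only because both 3-NPA arrays were bright. Between treatments, 2 members were called for MPP+ against Mn, 3 for 3-NPA against Mn and 5 for 3-NPA against MPP+, where 9.1%, 28.6% and 31% of all genes were called. The 3 comparisons with control share the same 2 control arrays.

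Other genes of the pathway were taken from 10 lists, which were written with earlier results of these data known. They named 139 genes, of which 130 were found on the array by name and 104 were tested in limma with Benjamini-Hochberg adjustment over all genes. With 3-NPA 28 rose and 18 fell, 44.2% of those tested, where 22.3% of all genes were called higher and 16% lower. The median log2 difference was 0.045 over the lists and 0.051 over all genes. With Mn 8 rose and 1 fell, 8.65% of those tested, where 4.5% of all genes were called higher and 3.16% lower. With MPP+ 4 rose and 7 fell, 10.6% of those tested, where 7.47% of all genes were called higher and 6.47% lower. Setting the median of each array to 0 in place of the 75th percentile moved the median of all genes with 3-NPA to -0.09 and the split to 18 higher and 21 lower. The 3-NPA count of 46 was 26 without 3-NPA replicate 1 and 27 without 3-NPA replicate 2. The Mn count of 9 was 4 without control replicate 2, 3 and 5 without Mn replicates 1 and 2, and 2 without any 1 array of MPP+ or 3-NPA. The MPP+ count of 11 was 7 and 6 without control replicates 1 and 2, 3 and 2 without MPP+ replicates 1 and 2, and 5 without either 3-NPA array.

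Class II accessory genes rose with 3-NPA. RT1-DMa and RT1-DMb form the DM molecule that exchanges the Cd74 remnant for a peptide. RT1-DMa gave 1230 and 788 in control and 1970 and 2160 with 3-NPA, a rise of 1.04 ± 0.18 (adjusted p = 0.00744, limma). RT1-DMb gave 426 and 391 in control and 821 and 898 with 3-NPA, also 1.04 ± 0.13 (adjusted p = 0.0022, limma). Both were also called between 3-NPA and each other treatment, and neither was called with Mn or MPP+ against control. RT1-DOb, which restrains DM, gave 11.6 and 27.3 in control, not well above background, and 42.1 and 40.6 with 3-NPA. No bound above 1 could be given for it, it was tested only because both 3-NPA arrays were bright, and it was not called (adjusted p = 0.077, limma). Thus 2 of the 3 tested genes of this list passed, where 22.3% of all genes were called higher with 3-NPA. Both calls held when any single array was left out.

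Of 11 tested genes of lysosomal processing, 7 rose and 1 fell with 3-NPA, 72.7% of the list, with a median of 0.38. Of all genes, 22.3% were called higher and 16% lower. Ctsl1, a cathepsin that trims Cd74, rose by 0.60 ± 0.11 (adjusted p = 0.00874, limma), and Lgmn, a lysosomal protease, by 0.78 ± 0.19 (adjusted p = 0.0208, limma). Cst3, a cathepsin inhibitor, rose by 0.41 ± 0.08 (adjusted p = 0.0105, limma), and Ifi30, a thiol reductase of the lysosome, by 0.38 ± 0.09 (adjusted p = 0.0215, limma). Ifi30 was also called higher with Mn, by 0.47 (adjusted p = 0.0386, limma), and Ctsl1 with MPP+, by 0.46 (adjusted p = 0.0471, limma). Those 2 calls were lost under 13 and 11 of 21 other settings. Sppl2a, which clears the last membrane stub of Cd74, fell by 0.79 ± 0.14 (adjusted p = 0.00845, limma). Ctss, the cathepsin most tied to Cd74 cleavage in antigen-presenting cells, was not tested because its probe did not pass the filter on dim probes. The 7 rises became 2 with the median of each array set to 0, 1 without 3-NPA replicate 1, 0 without 3-NPA replicate 2, 4 and 3 without control replicates 1 and 2, and 4 without either MPP+ array.

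The proteasome genes that feed the class I route went down with 3-NPA. Of 9 tested, 7 fell and 0 rose, 77.8% of the list, where 16% of all genes were called lower. The median was -0.55 against 0.05 for all genes. Psmb10, a subunit specific to the immunoproteasome, gave 30600 and 29900 in control, 35800 and 27000 with Mn, 20100 and 18200 with MPP+, and 10200 and 10400 with 3-NPA. It fell by 1.59 ± 0.15 with 3-NPA (adjusted p = 0.000888, limma) and by 0.84 ± 0.15 with MPP+ (adjusted p = 0.02, limma). Psmb8, another such subunit, gave 6550 and 5180 in control and 2150 and 2480 with 3-NPA, a fall of 1.37 ± 0.14 (adjusted p = 0.00104, limma), and Psmb9 fell by 0.49 ± 0.08 (adjusted p = 0.00522, limma). Psme2, part of the interferon-inducible activator, fell by 0.85 ± 0.09 (adjusted p = 0.0014, limma), and Psmb6, a subunit of the constitutive proteasome, by 0.82 ± 0.10 (adjusted p = 0.00232, limma), so the falls were not limited to the immunoproteasome. Psme2 was also called lower with MPP+, by 0.40 (adjusted p = 0.0394, limma), a call lost under 9 of 21 other settings. The 7 falls ranged from 5 to 8 when single arrays were left out, and 1 gene of the list rose without control replicate 1.

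Class I heavy chains had few calls. Of 27 tested class I chains, 2 rose and 1 fell with 3-NPA, 11.1% of the list, with a median of 0.02. Of all genes, 22.3% were called higher and 16% lower. With Mn or with MPP+ 0 chains were called. RT1-A1, a classical chain, gave 38800 and 28000 in control and 41400 and 42800 with 3-NPA, a difference of 0.32 ± 0.12 (adjusted p = 0.0918, limma). The called chains were RT1-CE7 at 0.54 ± 0.13 and RT1-T24-4 at 0.77 ± 0.19 (adjusted p = 0.0223 for each, limma), and RT1-CE15 at -0.68 ± 0.17 (adjusted p = 0.025, limma). None of RT1-CE7, RT1-T24-4 and RT1-CE15 can be assigned firmly, since near-identical chains can share a probe. Dimmer probes of RT1-CE5 (1.38 ± 0.29, adjusted p = 0.0143, limma over probes) and RT1-CE2 (0.38 ± 0.11, adjusted p = 0.0375) were higher with 3-NPA. The brighter probes that stood for RT1-CE5 and RT1-CE2 were not called, nor were the dimmer probes of RT1-A1 and RT1-S2. Without 3-NPA replicate 1, 0 chains were called, without 3-NPA replicate 2 only a fall was called, and without control replicate 2 the same.

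Of 11 tested loading factors, 1 rose and 2 fell with 3-NPA, 27.3% of the list. Of all genes, 22.3% were called higher and 16% lower. A difference above 0 was seen in 2 of the 11 loading factors, with a median of -0.31 against 0.05 for all genes. Calr and Hspa5, chaperones of the endoplasmic reticulum, fell with 3-NPA by 0.88 ± 0.11 (adjusted p = 0.00255, limma) and 0.82 ± 0.12 (adjusted p = 0.0033, limma). Calr was also called lower with Mn, at -0.54 (adjusted p = 0.0449, limma), and with MPP+, at -0.58 (adjusted p = 0.026, limma). Those calls of Calr were lost under 13 and 9 of 21 other settings. Lnpep, an aminopeptidase of cross-presentation, rose by 0.85 ± 0.23 (adjusted p = 0.0321, limma), a call lost under 7 of 20 other settings. The 2 falls with 3-NPA ranged from 2 to 4 with single arrays left out and were 5 with the median of each array set to 0. Tapbp, the tapasin that bridges class I and the transporter, gave 743 and 700 in control and 997 and 1050 with Mn, a rise of 0.45 ± 0.09 (adjusted p = 0.0365, limma), and was -0.09 ± 0.09 with 3-NPA. That Mn call of Tapbp was lost under 12 of 21 other settings. Of 6 tested class I-like molecules 2 rose with 3-NPA, 33.3% of the list, where 22.3% of all genes were called higher. Raet1e, a ligand of the natural killer receptor Nkg2d, rose with 3-NPA to at least 1.16-fold (adjusted p = 0.000563, limma), and Mr1, which presents vitamin metabolites, was called at 1.35 ± 0.42 (adjusted p = 0.0492, limma) with no bound above 1. The 2 calls with 3-NPA became 1 without either 3-NPA array or either MPP+ array, and the Mr1 call was lost under 11 of 20 other settings. Raet1e, dim on both control arrays, was also called higher with Mn (0.53, adjusted p = 0.0448, limma) and MPP+ (0.56, adjusted p = 0.0276, limma). Those calls of Raet1e were lost under 15 and 10 of 21 other settings.

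**Figure D4:**
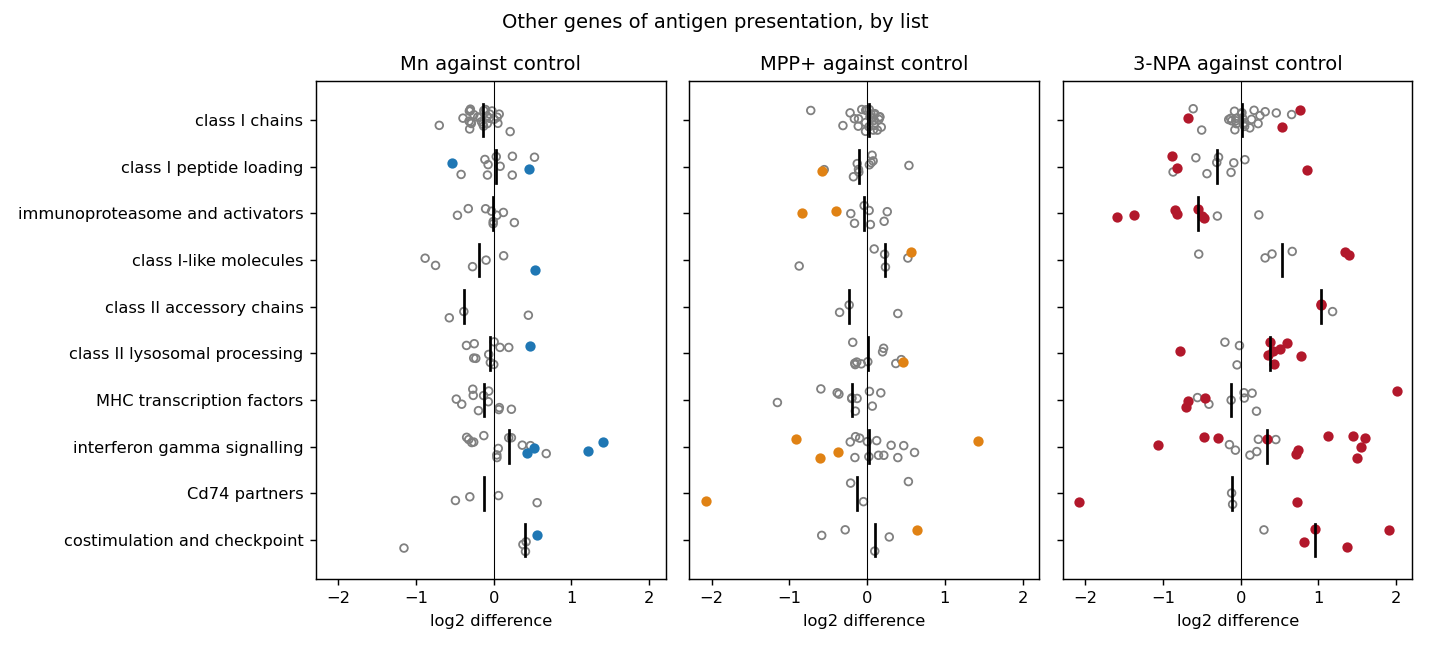
Log2 difference from control (horizontal axis) of each tested gene of the 10 lists, for Mn, MPP+ and 3-NPA; filled points passed an adjusted p of 0.05 in limma, and black bars are list medians. With 3-NPA the immunoproteasome list has 7 filled points below 0, and the accessory class II list 2 above it.

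Of 11 tested transcription factors of MHC genes, 1 rose and 3 fell with 3-NPA, 36.4% of the list and near the share of all genes called (22.3% higher and 16% lower). Rfx5, which binds the X box, was at 0.05 ± 0.25 (adjusted p = 0.898, limma) and was dim on both control arrays, and Nlrc5, the class I coactivator, was not found by name. Without 3-NPA replicate 1 the 3 falls became 0, and they became 1 without 3-NPA replicate 2 and 2 without control replicate 2. Rfxank, a partner of Rfx5, fell by 0.71 ± 0.14 (adjusted p = 0.00996, limma), Nfya, which binds the Y box, by 0.68 ± 0.15 (adjusted p = 0.0157, limma), and Ezh2, a repressive histone methyltransferase, by 0.46 ± 0.10 (adjusted p = 0.0156, limma). Prdm1, known to repress Ciita in plasma cells, gave 9.37 and 11.4 in control and 40.7 and 44.5 with 3-NPA. It is the 1 call upward in this list (adjusted p = 0.00653, limma), but it was tested only because both 3-NPA arrays were bright, it was dim on both control arrays with no bound above 1, and no gene of the list was called higher with the filter on all 8 arrays.

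Of 17 tested genes of interferon gamma signalling, 8 rose and 3 fell with 3-NPA, 64.7% of the list. Of all genes, 22.3% were called higher and 16% lower. Cxcl10, a chemokine, gave 3020 and 2970 in control and 8600 and 8180 with 3-NPA, a rise of 1.45 ± 0.13 (adjusted p = 0.00074, limma). Icam1, an adhesion molecule, rose by 0.71 ± 0.09 with 3-NPA (adjusted p = 0.00267, limma). It was also called higher with Mn, by 0.43 (adjusted p = 0.0489, limma), a call lost under 14 of 21 other settings. Socs1, a feedback inhibitor, was at least 1.77-fold higher with 3-NPA (adjusted p = 0.000888, limma) and at least 1.40-fold higher with Mn (adjusted p = 0.00916, limma). Gbp5, a guanylate-binding protein, rose with every treatment, by 1.40 ± 0.15 with Mn (adjusted p = 0.00586, limma), 1.43 ± 0.15 with MPP+ (adjusted p = 0.00378, limma) and 1.49 ± 0.15 with 3-NPA (adjusted p = 0.000982, limma). Irf1, which drives class I genes, was at -0.07 ± 0.10 with 3-NPA (adjusted p = 0.618, limma) and fell by 0.61 ± 0.10 with MPP+ (adjusted p = 0.0139, limma), though its dimmer probe gave -0.02 ± 0.19 there. The 3 falls became 1 without either control array, either MPP+ array or 3-NPA replicate 2, and the 8 rises became 5 without 3-NPA replicate 1. Ifng itself was on the array and was not tested, because it did not pass the filter.

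Among the partners of Cd74, its signalling coreceptor Cd44 gave 5360 and 5490 in control and 9150 and 9200 with 3-NPA, a rise of 0.72 ± 0.16 (adjusted p = 0.0165, limma), a call that was lost without control replicate 1, without either 3-NPA array and with the median of each array set to 0. Mif, the ligand, was at -0.10 ± 0.09 with 3-NPA (adjusted p = 0.415, limma). Cxcr7, a chemokine receptor that can also bind Mif, gave 1020 and 905 in control, 312 and 216 with MPP+ and 230 and 236 with 3-NPA, and fell by 2.07 ± 0.15 (adjusted p = 0.00185, limma) and 2.08 ± 0.15 (adjusted p = 0.000424, limma). Of 5 tested costimulation genes, 4 rose with 3-NPA, 80% of the list, where 22.3% of all genes were called higher. Cd40, a costimulatory receptor of antigen-presenting cells, gave 727 and 580 in control and 2340 and 2670 with 3-NPA, a rise of 1.91 ± 0.10 (adjusted p = 0.000152, limma), and 0.56 ± 0.10 with Mn (adjusted p = 0.027, limma), a Mn call lost under 10 of 21 other settings. Cd83 rose by 0.82 ± 0.11 (adjusted p = 0.00283, limma), Tnfsf9 by 0.95 ± 0.15 (adjusted p = 0.00476, limma), and Vtcn1 was at least 2.45-fold higher (adjusted p = 0.0121, limma). The Vtcn1 call was lost without 3-NPA replicate 2 and with the mean over probes, and its dimmer probe gave 0.65 ± 0.72 with overlapping arrays and no bound above 1. The genes for the main costimulatory ligands, Cd80 and Cd86, were on the array and did not pass the filter on dim probes.

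Markers of other cells were read on the same arrays, because class II genes are typical of immune cells. Of 14 macrophage and microglia markers, 4 were not well above background on any array (Ptprc, P2ry12, Emr1 and Spi1), and 5 of the 10 tested rose with 3-NPA. The share of all genes called higher with 3-NPA was 22.3%, which stands beside the count of each marker list below as well. Cd68 rose from 120 and 79.2 in control to 239 and 242 with 3-NPA, and Lyz2, dim on both control arrays at 29.4 and 22.1, gave 87.5 and 88.3. The summed signal of the list was 1169 and 1067 in control, 1390 and 1364 with Mn, 1174 and 1063 with MPP+, and 1378 and 1538 with 3-NPA. The Mn and 3-NPA arrays lay above the control and MPP+ arrays in this sum and overlapped each other. The sum is weighted towards bright markers. Cd14, the marker with the highest control signals, gave 411 and 329 in control, 544 and 496 with Mn, and 244 and 353 with 3-NPA. The overlap in the sum therefore cannot stand for the other markers, and no order of Mn and 3-NPA is read from it. No marker of the list was called with Mn, and Cd14, Aif1, Csf1r, Tmem119 and Fcer1g were not called with 3-NPA. Of 11 dendritic, B and T cell markers, 7 were not well above background on any array, among them Itgax, Ms4a1 and Cd3e. Of the 3 tested, 2 were called higher with 3-NPA. Cd3d gave 99.6 and 82.9 in control and 161 and 159 with 3-NPA. Flt3 gave 9.57 and 10.8 in control and 25.5 and 27.8 with 3-NPA, and was tested only because both 3-NPA arrays were bright. Their summed signal ran from 281 to 327 in control, 236 to 257 with Mn, 294 to 335 with MPP+ and 350 to 354 with 3-NPA. Of 5 endothelial markers, Tie1 and Tek were not well above background on any array, and 2 of the 3 tested were called higher with 3-NPA. Kdr gave 40.6 and 27.2 in control and 130 and 164 with 3-NPA, and Pecam1 gave 23.4 and 18.8 and then 40.4 and 44.6, both dim on the control arrays. Cdh5 was at 0.25 (adjusted p = 0.303, limma). The part of these markers in the class II result was not tested, and in bulk RNA more cells with a transcript cannot be told apart from more transcript per cell. Of 8 dopaminergic markers 6 were tested and 2 were called higher with 3-NPA, Ddc (41.6 and 23.7 in control, 115 and 147 with 3-NPA) and Pitx3 (20.2 and 13.4 in control, 61.1 and 58.5 with 3-NPA), both dim on the control arrays. Th was well above background in every group and was at 0.11 with 3-NPA (adjusted p = 0.413, limma), while Slc6a3 and Foxa2 were not well above background on any array.

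Among tested genes with a gene symbol, members left out, likeness to Cd74 across the 8 arrays was ranked. The highest were Atp2a3, a calcium pump of the endoplasmic reticulum (Pearson r = 0.998), Rprml (0.996), Icam5 (0.995), Notch1 (0.995) and Ndn (0.992). Atp2a3 was well above background on 6 arrays and Rprml on 4. Those most like B2m were Abcb1b, a drug efflux pump (r = 0.982), Prrc2b (0.981), Plekhb2 (0.98), Cyb561 (0.979) and Jrkl (0.979). These are the highest among those of the 16908 tested genes that have a symbol, and they share the arrays and groups, so they describe likeness of pattern alone. Cd74 and B2m themselves had a correlation of 0.765, and Cd74 and Tap1 of -0.644.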

How the data were processed

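Single-colour Agilent arrays of N27 RNA were analysed. The deposited intensity is the processed signal of Feature Extraction 11.5.1.1, with background subtracted and no scaling between arrays, per the file headers, and probe positions are on rn4. The authors' deposited value table is in log2, taken as centred near each array's 75th percentile from its match to the scanner values (correlation at least 0.9966, column medians from -4.38 to -4.00), and what made it is not given in the sources used here. Its direction is that of the signal.

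Outlier spots were dropped, log2 signals averaged over spots, and each array's 75th percentile was set to 0. A probe was kept if both arrays of some group were well above background (19460 of 30328), and the brightest stood for a gene. Group means were fitted over all 8 arrays with limma 3.58.1 in R 4.3.3, with Benjamini-Hochberg adjustment in each of 6 comparisons and calls at 0.05. The test was tried on simulated data. The number of arrays limits the precision.

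The members and lists were chosen with earlier results of these data known. Named genes were the 9 members, up to 4 per list with the smallest p among called genes, 13 fixed genes, and the 5 genes with a symbol most correlated with each of Cd74 and B2m. Not every gene under this rule is reported here. Other genes are named where a list is described. Alternatives covered background correction, scaling, filters, probes, variances, arrays left out and a replicate block. Promoters are from RefSeq (GRCr8).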

Additional observations from a re-analysis of the deposited data

How the results depend on the processing

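Counts below are wider-list genes called of 104. The replicate block gave 3 calls for Mn, 7 for MPP+ and 7 for MPP+ against Mn, and left the count with 3-NPA at 46. The labels do not say that replicate numbers pair the samples, and deviations of same-numbered arrays correlated at 0.50 for Mn and 3-NPA and from -0.02 to 0.10 for the other pairs of groups. With no filter on dim probes the calls were 27 for Mn, 28 for MPP+, 4 for MPP+ against Mn and 22 for 3-NPA against Mn. Trend and robust variances gave 15 for Mn and 17 for MPP+ against Mn, array weights 2 for Mn and 57 for 3-NPA against MPP+, and the median of each array 6 for MPP+ against Mn. In limma fits of only the 4 arrays of a pair, 0 were called for Mn (16 at an unadjusted p under 0.05), 5 for MPP+, 1 for MPP+ against Mn and 24 for 3-NPA against Mn. The 6 arrays of the first extraction run and a looser rule on background were added after the data were seen, and the first gave 2 for Mn, 5 for MPP+ and 5 for MPP+ against Mn. Leaving out single arrays, where the lone array is assumed to vary like the others, gave 2 to 6 for Mn, 2 to 13 for MPP+, 26 to 49 for 3-NPA, 1 to 9 for MPP+ against Mn, 14 to 40 for 3-NPA against Mn and 13 to 42 for 3-NPA against MPP+. The cause was not tested, apart from the fewer arrays of those fits. Of the members, RT1-Da with MPP+ turned from -1.65 to 0.35 under quantile normalization. Signals near background, as for Cd74, Ciita, RT1-Da and RT1-Bb in control, limit what can be said of their fold.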
